A study of Mus musculus with 16 samples.

Results

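The tissue kallikreins examined here were Klk1b22, Klk1b3, Klk1, Klk8, Klk10, Klk7 and Klk11, measured in whole brains of male mice that lacked or carried the monocarboxylate transporter Slc5a8. They comprised every non-control probe whose gene name was one of these 7 symbols, which gave 7 probes, 1 for each gene, of 55681 probes and 34821 gene names on the array. The set was chosen by measured values, the genotype differences of these same arrays, because Klk1b22 and Klk1b3 were among the largest rises in deficient brains, so the genotype values of that pair are given below as a description, and nothing is read from their calls. RNA from 16 brains was hybridised in 1 colour (Cy3) to Agilent whole-genome mouse arrays, 4 arrays in each of 4 groups. The groups were Slc5a8-deficient mice aged 18 months (old), Slc5a8-deficient mice aged 4 months (young), wild-type mice aged 18 months and wild-type mice aged 4 months. All were labelled C57BL/6J, with no treatment named and with the strain and age entries of the labels interchanged, and the design text calls the arrays biological replicates without saying more about the animals. The labels do not give the allele, the deleted stretch or the cells in which Slc5a8 was lost.

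Tissue kallikreins are secreted serine proteases of trypsin-like or chymotrypsin-like specificity, made as inactive precursors and encoded side by side in 1 cluster. Klk1 releases kinins from kininogen, and in rodents its neighbours multiplied into the Klk1b genes, whose products are best known from the granular ducts of the submandibular gland, where they bind or process growth factors. In the brain the family is known mainly for Klk8 (neuropsin), an extracellular protease of neurons that takes part in synaptic plasticity in the mouse hippocampus, and for Klk6 (neurosin), a protease of oligodendrocytes.

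The probes of Klk1b22 and Klk1b3 are shown because they are close relatives in sequence and gave the largest genotype differences of the family. Both lie on the plus strand of chromosome 7 in NCBI37/mm9, the build named in the scanner files, at chr7:51371648-51371707 for Klk1b22 and chr7:51457064-51457122 for Klk1b3, and their letters, 5′ to 3′, come from those files. Capitals mark the bases that are the same in both where the probes overlap.
Klk1b22: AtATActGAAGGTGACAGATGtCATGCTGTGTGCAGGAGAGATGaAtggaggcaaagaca
Klk1b3: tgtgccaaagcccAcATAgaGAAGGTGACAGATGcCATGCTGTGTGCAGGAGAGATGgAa
The overlap was 47 bases long, 41 of which matched, and the longest unbroken shared run was 22 bases. Counted from 1 at the 5′ end of the Klk1b22 probe, with the Klk1b22 base first, the differences were T2C, C6G, T7A, T22C, A45G and T47A. No other non-control probe on the array shared 20 or more bases in a row with either of them, on either strand. Whether either probe takes up transcripts of other Klk1b genes was not tested.

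The other 5 probes were also on the plus strand of chromosome 7. The Klk11 probe was at chr7:51034552-51034611, the Klk8 probe at chr7:51057455-51057514 and the Klk7 probe at chr7:51071388-51071447. The Klk10 probe at chr7:51039077-51039720 and the Klk1 probe at chr7:51484170-51484325 spanned 644 and 156 bases of genome for 60 bases of probe, so each crosses a splice junction. All 7 genes matched the RefSeq gene table under the same symbol.

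Between 58.4% and 66.1% of the 59305 non-control spots of an array passed the scanner software's test against background, and the processed signal had a 75th percentile of 624 to 1346. Levels are log2 signals relative to that percentile of the same array, so a level of 0 is the percentile itself, and differences between groups of 4 arrays are on the log2 scale, ± SE, from a limma fit of all 4 groups. A gene was called when its Benjamini-Hochberg adjusted p over all 23030 genes tested was under 0.05. The number of arrays limits the precision. The Slc5a8 probe was well above background on 0 of 16 arrays, with a mean of -7.49 in old deficient brains against -7.04 in old wild-type brains (exact two-sided permutation p = 0.2), and of -7.22 in young deficient brains against -7.27 in young wild-type brains (exact p = 0.886), where 0.0286 is the smallest p that 4 arrays against 4 allow. The genotype labels could therefore not be checked with it. All deficient arrays were on 1 slide and all wild-type arrays on another, and within a genotype the ages were in different rows of the slide, and an effect of the slide and one of the genotype cannot be told apart. The first young deficient array stood apart on the first principal component, at 97.2 against 26.6 for the next highest array. All markers listed for neurons (6), astrocytes (5), oligodendrocytes (5) and microglia (5) were above background on all 16 arrays. In whole tissue, fewer cells that express a gene and less RNA per cell cannot be told apart.

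Of the 7 probes, Klk8 and Klk10 were well above background on all 16 arrays, Klk1b3 on 15, Klk1b22 on 11, Klk1 on 5, and Klk7 and Klk11 on 0. Klk1b22, Klk1b3, Klk8 and Klk10 passed the filter, which asked for all 4 arrays of at least 1 group. Klk1b22 passed it only through the deficient groups, where 8 of 8 arrays were above background against 3 of 8 wild-type arrays, so a difference was built into its selection. The mean level of the Klk8 probe ranked at percentile 70.1 of all probes, that of Klk10 at 51.2, Klk1 at 35.7, Klk11 at 30.0 and Klk7 at 16.2. The probe of Klk6, the oligodendrocyte protease of the same family, was at percentile 81.5. These ranks place each probe's signal among all probes and do not compare transcript numbers between genes.

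**Figure D1:**
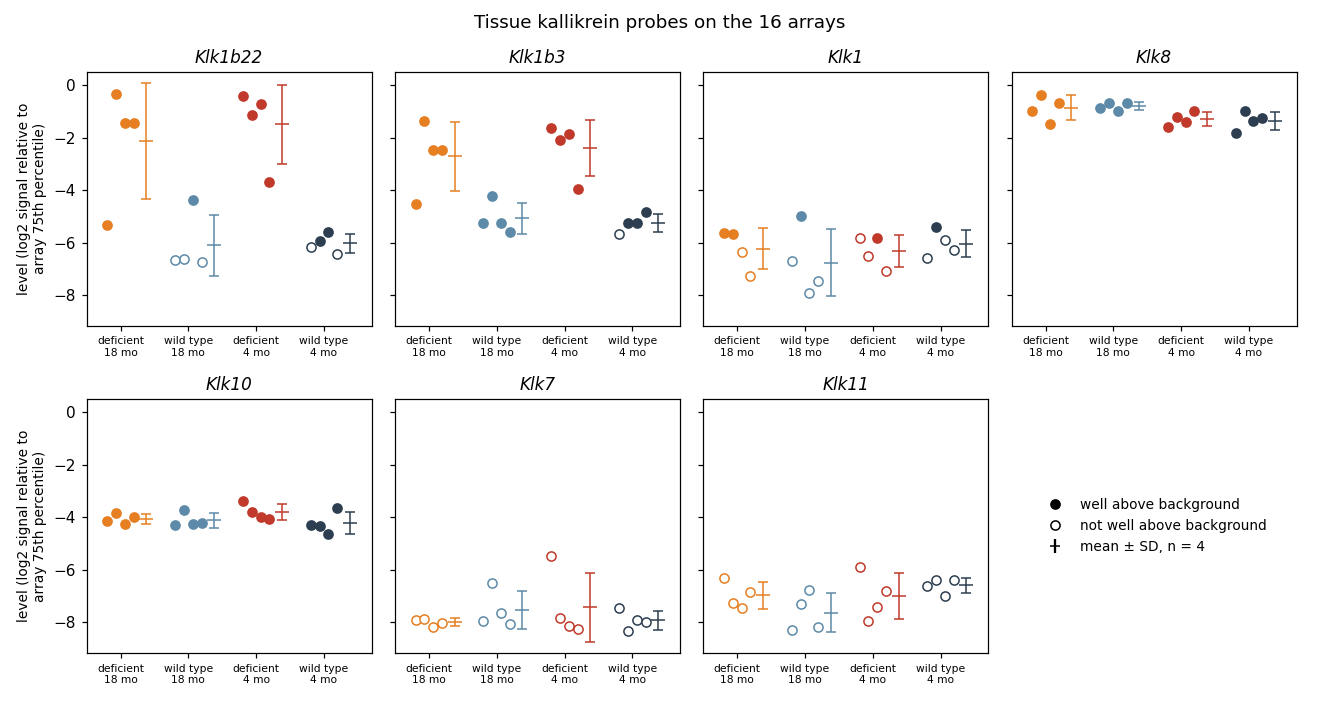
Level of the 7 kallikrein probes on each array (log2 signal relative to the array's 75th percentile), by genotype and age, with filled points well above background, open points not, and bars for the mean ± SD of 4 arrays. The Klk1b22 and Klk1b3 probes were high on most deficient arrays and low on the wild-type arrays, Klk8 and Klk10 overlapped between genotypes at both ages, and Klk7 and Klk11 were not well above background on any array.

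Klk1b22, a Klk1-like protease known in the mouse as a processing and binding enzyme of growth factors, showed the largest genotype difference of the members. Its level was -5.35, -0.34, -1.43 and -1.43 on the 4 old deficient arrays, against -6.66, -6.62, -4.36 and -6.76 on the 4 old wild-type arrays. It was -0.43, -1.13, -0.71 and -3.71 on the young deficient arrays, against -6.18, -5.93, -5.61 and -6.43 on the young wild-type arrays. The young groups did not overlap, as for 4.68% of 23024 genes in this direction, while among old mice deficient array 1 lay below wild-type array 3. The level averaged -2.14 ± 2.20 in old deficient brains against -6.10 ± 1.16 in old wild-type brains, and -1.50 ± 1.50 in young deficient brains against -6.04 ± 0.35 in young wild-type brains (SD, n = 4 each). The difference, deficient minus wild type, was 3.96 ± 0.93 in old and 4.54 ± 0.93 in young mice, or 15.6-fold and 23.3-fold. The probe was well above background on 1 of 4 old and 2 of 4 young wild-type arrays, so the wild-type side of these folds rests partly on background signal.

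Klk1b3, a Klk1-like protease of the mouse submandibular gland, differed less in size and in the same arrays. Its level was -4.53, -1.37, -2.48 and -2.48 on the old deficient arrays, against -5.26, -4.22, -5.24 and -5.60 on the old wild-type arrays. It was -1.64, -2.09, -1.87 and -3.96 on the young deficient arrays, against -5.69, -5.26, -5.27 and -4.84 on the young wild-type arrays. As with Klk1b22, the young groups did not overlap, and old deficient array 1 fell within the wild-type range, below old wild-type array 2. The means were -2.72 ± 1.32 in old deficient brains against -5.08 ± 0.59 in old wild-type brains, and -2.39 ± 1.06 in young deficient brains against -5.26 ± 0.35 in young wild-type brains (SD, n = 4 each). The difference was 2.37 ± 0.58 in old and 2.87 ± 0.58 in young mice, or 5.15-fold and 7.33-fold.

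For each of these genes, 7 of 8 deficient arrays lay above all 8 wild-type arrays. At least 7 did so for 1.12% of 23012 genes without missing values. Averaged over age the differences were 4.25 ± 0.66 for Klk1b22 and 2.62 ± 0.41 for Klk1b3. Among the 4 members tested, 2 were called in that averaged contrast, 1 (Klk1b22) in old mice and 2 in young mice, where the share called over all genes was 3.18%, 1.48% and 1.53%. Since the genes were picked for this contrast, nothing is read from those counts. Their differences were smaller with other background treatment: with normexp correction the averaged difference was 2.32 for Klk1b22 and 1.51 for Klk1b3, and in the normalized values that the authors deposited 2.72 and 1.78.

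The pair was chosen by genotype differences, not by how the deficient arrays differed among themselves or how the pair moved with age. The age differences and the interaction come from the same group means, so they are not independent of that choice. Old deficient array 1 and young deficient array 4 were the lowest of their groups for both genes, at -5.35 and -3.71 for Klk1b22 and at -4.53 and -3.96 for Klk1b3. The other 6 deficient arrays lay between -1.43 and -0.34 for Klk1b22. On those low arrays 62.5% and 64.0% of spots were well above background, inside the 59.7% to 66.1% of the deficient arrays. Why they were low for both genes was not tested. Across the 8 deficient arrays Pearson's r between the genes was 0.987 and Spearman's rho 0.976. Without the low arrays r was 0.984 over the remaining 6, so the correspondence did not rest on them. Across the 8 wild-type arrays, where Klk1b22 was mostly not above background, r was -0.162. The points share arrays and scaling, and the probes share 41 of 47 overlapping bases; the part of either in these values was not tested.

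**Figure D2:**
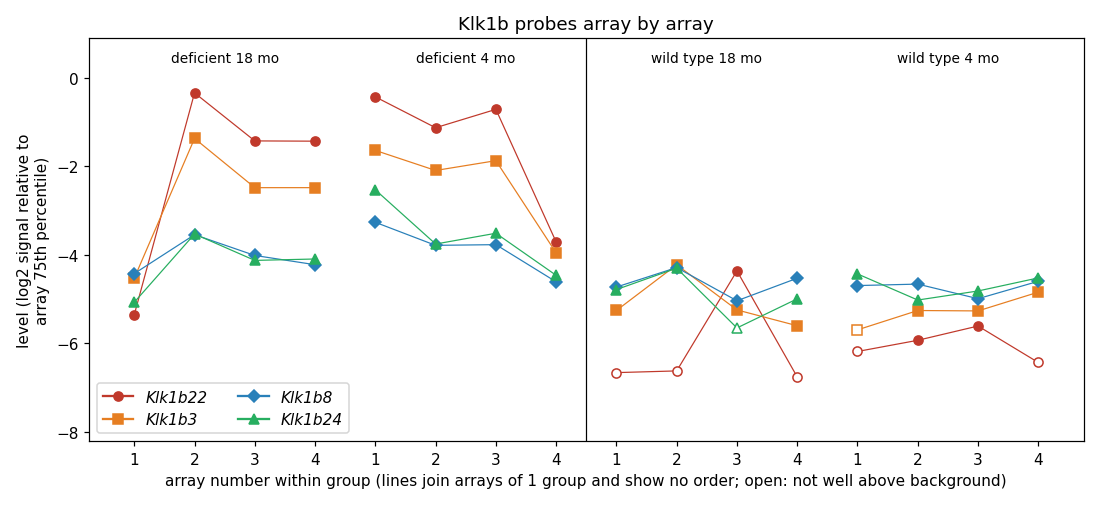
Levels of Klk1b22, Klk1b3, Klk1b8 and Klk1b24 (log2 signal relative to the array's 75th percentile) on the 8 deficient and then the 8 wild-type arrays; lines join arrays of 1 group and show no order, and open symbols were not well above background. All 4 probes were lowest within their deficient groups on old array 1 and young array 4; Klk1b8 and Klk1b24 were chosen for this plot after their values were seen.

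Age did not separate the pair in these data. In deficient brains the old minus young difference was -0.64 ± 0.93 for Klk1b22 (limma adjusted p = 0.700) and -0.32 ± 0.58 for Klk1b3 (adjusted p = 0.759). In wild-type brains it was -0.06 ± 0.93 and 0.18 ± 0.58 (adjusted p = 0.9999 for each). The genotype difference was not shown to change with age either, with an interaction of -0.58 ± 1.32 for Klk1b22 (limma adjusted p = 0.880) and -0.51 ± 0.82 for Klk1b3 (adjusted p = 0.834). The SEs are wide, so age differences of the size of 1 on the log2 scale were not detectable for these probes. The sign in deficient mice hung on a single array: without old deficient array 1 the difference was 0.43 for Klk1b22 and 0.28 for Klk1b3, and without young deficient array 4 it was -1.38 and -0.85. Leaving out the same arrays turned the interaction to 0.49 and 0.10, or took it to -1.32 and -1.03.

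Klk8, the neuropsin of hippocampal neurons, was well above background on every array and showed no genotype difference that the test could call. Its level was -0.97, -0.36, -1.48 and -0.67 on the old deficient arrays, against -0.87, -0.68, -0.97 and -0.68 on the old wild-type arrays. It was -1.58, -1.22, -1.39 and -0.98 on the young deficient arrays, against -1.82, -0.99, -1.38 and -1.24 on the young wild-type arrays. The genotypes overlapped at both ages, and old arrays were mostly the higher ones. Averaged over age, deficient minus wild type was -0.0018 ± 0.15, with a 95% interval of -0.33 to 0.33 (limma adjusted p = 0.998).

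With age, the Klk8 level was higher by 0.42 ± 0.22 in deficient brains (limma adjusted p = 0.276) and by 0.56 ± 0.22 in wild-type brains (adjusted p = 0.616, unadjusted p = 0.0228). All 4 old wild-type arrays lay above all 4 young wild-type arrays, which 1.36% of 23022 genes did. Averaged over genotype the difference was 0.49 ± 0.15, with a 95% interval of 0.16 to 0.82 and an adjusted p of 0.140 (unadjusted 0.00649). It passed the threshold only when old deficient array 3, the lowest old array, was left out (0.59, limma adjusted p = 0.0491). Row on the slide and age cannot be told apart within a genotype.

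Klk10, known in humans as a kallikrein of normal epithelial cells, lay well above background everywhere at a modest level. It was at -4.15, -3.83, -4.25 and -4.00 on the old deficient arrays, against -4.27, -3.72, -4.27 and -4.22 on the old wild-type arrays. In young mice it was at -3.37, -3.80, -3.99 and -4.06 on the deficient arrays, against -4.28, -4.34, -4.65 and -3.64 on the wild-type arrays. The groups overlapped at both ages, 1 wild-type array being within the range of the young deficient arrays. Deficient minus wild type was 0.06 ± 0.21 in old mice (limma adjusted p = 0.974) and 0.42 ± 0.21 in young mice (adjusted p = 0.311), and 0.24 ± 0.15 averaged over age, with a 95% interval of -0.07 to 0.55. The age difference averaged over genotype was -0.07 ± 0.15 (adjusted p = 0.826).

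Klk1, the kinin-releasing kallikrein, was at the edge of detection. Its level ranged from -7.29 to -5.63 in old deficient brains, against -7.91 to -4.99 in old wild-type brains, and from -7.08 to -5.81 in young deficient brains, against -6.58 to -5.41 in young wild-type brains. The ranges overlapped, and the probe was well above background on 3 of 8 deficient and 2 of 8 wild-type arrays. Klk7, the chymotrypsin-like protease of the outer skin, ranged from -8.25 to -5.49 in deficient and from -8.34 to -6.50 in wild-type brains. Klk11, a trypsin-like protease first named from hippocampus (hippostasin), ranged from -7.94 to -5.88 in deficient and from -8.30 to -6.38 in wild-type brains. Those last probes were not well above background on any array, so their order has no meaning. In a fit of all 34821 gene names without the filter, Klk1, Klk7 and Klk11 were called in 0 of 7 contrasts (limma).

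In the age contrasts 0 of 4 tested members were called in deficient mice, in wild-type mice or averaged over genotype, where 2.38%, 0.421% and 1.6% of all genes were called, and 0 of 4 were called in the interaction (0.187% of all genes, limma). At an unadjusted p under 0.05 the numbers were 0, 1, 1 and 0, the 1 being Klk8.

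The array also carried 19 other tissue kallikreins on 21 probes, of which 8 genes passed the filter. Averaged over age, 6 of 8 were higher in deficient brains and 1 was called, with a median difference of 0.07 beside 0.02 for all genes tested. In young mice 8 of 8 were higher and 0 called (limma; 2 at an unadjusted p under 0.05), with a median of 0.31, and in old mice 4 of 8 were higher and 0 called (1 unadjusted), with a median of -0.01. The called gene was Klk1b8, a Klk1-like gene of the same subfamily, which rose by 0.74 ± 0.18 (limma adjusted p = 0.0348) averaged over age, by 0.88 ± 0.25 in young (adjusted p = 0.0942) and 0.59 ± 0.25 in old mice (adjusted p = 0.414). Its call was lost with normexp correction (0.27, adjusted p = 0.383), without the filter (adjusted p = 0.0739) and when any of 12 of the 16 arrays was left out.

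The level of Klk1b8 was -4.42, -3.54, -4.01 and -4.22 on the old deficient arrays, against -4.73, -4.29, -5.04 and -4.53 on the old wild-type arrays. It was -3.26, -3.78, -3.77 and -4.61 on the young deficient arrays, against -4.69, -4.66, -4.99 and -4.60 on the young wild-type arrays. Of 8 deficient arrays, 6 lay above all wild-type arrays, where 2.16% of genes had at least 6, and the exceptions were again old array 1 and young array 4. Klk1b24 had the same exceptions, with 6 of 8 deficient arrays above all wild-type arrays, and a difference of 0.93 ± 0.27 that did not pass the test (limma adjusted p = 0.0844). Klk1b27 and Klk9 were also lowest in their deficient groups on these arrays, with 1 of 8 deficient arrays above all wild-type arrays for each. Within the deficient arrays (n = 8) Klk1b22 correlated with Klk1b24 at r = 0.856, with Klk1b27 at 0.850 and with Klk1b8 at 0.826, but with Klk1b21 at 0.309 and with Klk1b5 at -0.503. With the low arrays left out r was 0.897 for Klk1b8 and 0.800 for Klk1b24 (n = 6). The probes of Klk1b8 and Klk1b24 shared at most 6 bases in a row with those of Klk1b22 and Klk1b3, as did the Klk8 probe. Only probes were compared, and they can cover different parts of their transcripts. Whether the Klk1b8 and Klk1b24 probes take up transcripts of Klk1b22 or Klk1b3 was not tested. The remaining Klk1b genes tested gave 0.92 ± 0.56 for Klk1b27, 0.09 ± 0.39 for Klk1b5 and -0.09 ± 0.18 for Klk1b21, none of which was called. Klk6 gave -0.15 ± 0.20 between genotypes and -0.68 ± 0.20 between ages averaged over genotype (limma adjusted p = 0.111), and was not called either.

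**Figure D3:**
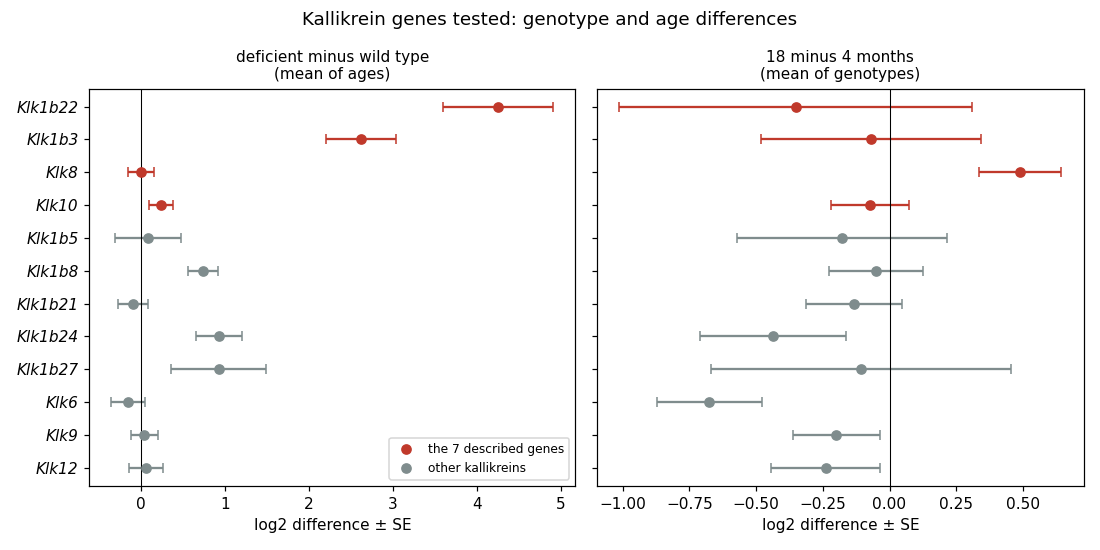
Log2 differences ± SE for the 12 kallikrein genes tested, deficient minus wild type on the left and 18 minus 4 months on the right, each averaged over the other factor (16 arrays). On the left Klk1b22 (4.25) and Klk1b3 (2.62) stood well to the right of the others, followed by Klk1b24, Klk1b27 and Klk1b8, and on the right Klk8 was the highest at 0.49 and Klk6 the lowest at -0.68.

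By correlation over the 16 arrays, the genes most like Klk1b22 were Klk1b3 (r = 0.948), probes without a gene symbol on chromosome 8 (0.892 and 0.870), Decr2 (0.867) and E2f2 (0.863). Those most like Klk1b3 were Klk1b22 (0.948), Klk1b8 (0.915), Rab42 (0.910) and the same chromosome 8 probes (0.896 and 0.894). Within the 8 deficient arrays Decr2 and E2f2 correlated with Klk1b22 at 0.482 and 0.546, and the chromosome 8 probes at 0.665 and 0.656. With Klk1b3, Klk1b8 correlated at 0.885 there, Rab42 at 0.807 and the chromosome 8 probes at 0.641 and 0.636. Each of these was lower than over the 16 arrays. How much of the likeness follows the genotype was not tested. Klk1b3 remained first for Klk1b22, and Klk1b22 for Klk1b3, within the deficient arrays.

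Because these genes varied together, their start regions are shown, from the RefSeq promoter table on GRCm38.p6, plus strand, as 140 bases before to 20 after the annotated start (chr7:44112533-44112692 for Klk1b22 and chr7:44198051-44198210 for Klk1b3). Capitals mark the longest run of bases that is the same in both full windows.
Klk1b22 promoter: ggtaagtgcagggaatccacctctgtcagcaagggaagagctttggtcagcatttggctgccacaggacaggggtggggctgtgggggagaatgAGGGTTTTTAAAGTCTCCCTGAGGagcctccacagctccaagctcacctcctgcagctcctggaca
Klk1b3 promoter: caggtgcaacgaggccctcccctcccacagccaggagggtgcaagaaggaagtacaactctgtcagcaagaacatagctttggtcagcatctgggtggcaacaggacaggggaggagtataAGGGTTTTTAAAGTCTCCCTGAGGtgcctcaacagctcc
The run was 24 bases long. It occurred, on either strand, in 4 of 32851 windows of 300 bases in the table, all of them kallikreins: Klk1b22, Klk1b3, Klk1b5 and Klk1b9. That count is of exact copies only. The Klk1b8 and Klk1b4 windows, for example, hold similar stretches that differ in a few bases, and such stretches were not counted. Klk1b5 holds the exact run and had a genotype difference of 0.09 ± 0.39. Klk1b9 holds it too and did not pass the filter. Its mean level was -5.86 in deficient against -6.80 in wild-type brains, well above background on 2 of 8 and 0 of 8 arrays. Whether the run has a part in these levels was not tested. The letters TATAAA, searched on both strands, were in 0 of 7 member windows and in 13.6% of all windows. These matches are descriptions of letters and not of binding.

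Genes near the cluster were counted within 2 Mb of the outermost member probes (chromosome 7, 49034552 to 53484325, NCBI37/mm9), a stretch with 146 genes tested. Averaged over age, 9 of them were called higher and 2 lower in deficient brains, or 7.53%, beside 3.11% of 1577 genes on the rest of chromosome 7 and 3.18% of all genes. With the kallikreins left out, 6 of 134 were higher and 2 lower, or 5.97%. In old mice 5 of 146 were higher and 0 lower (3.42%), and in young mice 6 higher and 1 lower (4.79%). No test was made of these shares.

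By smallest p, the genes called in the averaged contrast besides Klk1b22 and Klk1b3 were Bcat2, Fut1, A030001D20Rik and Kcnj14, all toward the far end of the stretch. Bcat2, the mitochondrial branched-chain aminotransferase, rose by 1.12 ± 0.13 (limma adjusted p = 0.000175). Fut1, a fucosyltransferase of blood-group H antigen synthesis, rose by 2.28 ± 0.30 (adjusted p = 0.000432); the difference was 0.88 with normexp correction (adjusted p = 0.00512) and 1.14 in the values that the authors deposited, and the stricter filter removed the gene. Kcnj14, an inward rectifier potassium channel, rose by 0.97 ± 0.20 (adjusted p = 0.0133), while its other kept probe gave 0.59 (adjusted p = 0.422). A030001D20Rik fell by 0.94 ± 0.17 on the log2 scale (adjusted p = 0.00641). For Bcat2 and Fut1 all 8 deficient arrays lay above all 8 wild-type arrays, as for 0.456% of genes. Fut1 was not well above background on all 16 arrays, and its lowest levels were on wild-type arrays. A difference may therefore be built into its selection, as for Klk1b22.

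The order of the deficient arrays in these neighbours was set beside that of Klk1b22. Fut1 was at -4.01, -3.28, -3.81 and -3.96 on the old deficient arrays, against -6.66, -4.58, -6.50 and -5.47 on the old wild-type arrays. It was at -3.45, -3.64, -4.16 and -2.61 on the young deficient arrays, against -6.71, -5.81, -5.92 and -5.55 on the young wild-type arrays. In old deficient mice Fut1 had the same order as Klk1b22, with array 2 highest and array 1 lowest, and so had Kcnj14, at -3.10, -2.07, -2.13 and -2.42. In young deficient mice array 4, the lowest of its group for Klk1b22, was the highest for Fut1 and for Kcnj14, which was at -2.99, -2.09, -2.39 and -1.93. Bcat2 was highest on old array 2 and young array 1, like Klk1b22, but lowest on old array 3 and young array 2.

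**Figure D4:**
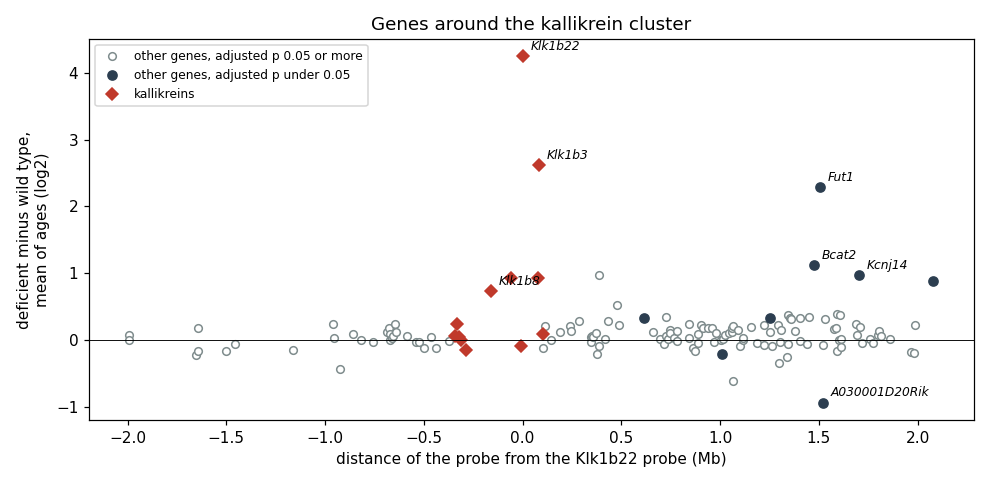
Difference between deficient and wild-type brains, averaged over age (log2), of the 146 genes around the cluster against the distance of the probe from the Klk1b22 probe (Mb, increasing along NCBI37/mm9). Klk1b22 and Klk1b3 stood highest, and Fut1 (2.28), Bcat2 (1.12), Kcnj14 (0.97) and A030001D20Rik (-0.94) lay over 1 Mb away on 1 side.

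Partners of the kallikreins were followed through lists of genes. Of 16 genes of the kallikrein-kinin system (kininogens, bradykinin receptors, kininases), 10 were tested, and in the averaged genotype contrast 6 of 10 were higher with a median of 0.04 and 0 called (limma; 0 at an unadjusted p under 0.05). Of 10 serine protease inhibitors 6 were tested, 3 of them higher in deficient brains, and Serpina3n, an acute-phase inhibitor made by astrocytes, rose by 0.33 ± 0.07 averaged over age (adjusted p = 0.0155). Serpina1a, an alpha-1-antitrypsin, rose by 0.72 ± 0.17 with age averaged over genotype (adjusted p = 0.0401); that call was lost with normexp correction (0.27, adjusted p = 0.326), without the filter (adjusted p = 0.0883) and when any of 13 of the 16 arrays was left out. Of 4 protease-activated receptors 1 was tested and not called. Of 12 substrates or ligands 11 were tested, and 0 were called in any contrast (limma; between 0 and 2 per contrast at an unadjusted p under 0.05), with a median genotype difference of -0.03 averaged over age.

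Since the Klk1b genes are best known from salivary gland, markers of that tissue were read on the same arrays. Of 14 submandibular gland markers, 5 were above background on all arrays and 2 (Dcpp1 and Prol1) on none. The median of the list, each gene taken relative to its mean over the 16 arrays, lay between -0.16 and 0.04 in old deficient brains against -0.41 and 0.01 in old wild-type brains, and between -0.03 and 0.18 in young deficient brains against 0.01 and 0.17 in young wild-type brains. These medians are over the 5 markers that passed the filter, and none of those 5 was called between genotypes (limma). The other markers of the list were not tested. On the low arrays the medians were -0.11 (old deficient array 1) and 0.12 (young deficient array 4), inside the ranges of their groups. Markers above background on only some arrays are not in these medians. The part of gland tissue in the kallikrein values was not tested.

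Of 10 keratinised epithelium markers, 9 were on the array, 5 of them above background on all arrays and 1 (Dsg1a) on none. Their median lay between -0.02 and 0.12 in old deficient brains against -0.34 and 0.07 in old wild-type brains. It lay between 0.04 and 0.48 in young deficient brains against -0.17 and -0.05 in young wild-type brains. The median genotype difference of the 7 genes tested was 0.22 in old and 0.20 in young mice. None of them was called at either age (limma). Sprr1a, a cornified envelope protein, rose by 1.30 ± 0.31 averaged over age (limma adjusted p = 0.0337); that call was lost with normexp correction (0.47, adjusted p = 0.214), without the filter (adjusted p = 0.0715), with the replicate block (adjusted p = 0.0596) and when any of 9 of the 16 arrays was left out. The part of this shift in the kallikrein values was not tested. Pituitary markers ranged widely in every group, from -3.02 to 1.33 in old deficient, -2.47 to -0.75 in old wild-type, -0.10 to 3.56 in young deficient and -0.48 to 5.26 in young wild-type brains.

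Averaged over age, 1 of 6 olfactory markers tested was higher in deficient brains, with a median difference of -0.51 beside 0.02 for all genes. S100a5 fell by 1.54 ± 0.29, Stoml3 by 0.96 ± 0.20 and Omp by 1.55 ± 0.39 on the log2 scale (limma adjusted p = 0.0086, 0.0175 and 0.0435). The Stoml3 call was lost with normexp correction (-0.37, adjusted p = 0.118), and that of Omp without the filter (adjusted p = 0.0891), with the replicate block (adjusted p = 0.0616) and when any of 13 of the 16 arrays was left out. Of 6 blood markers on the array 0 were higher averaged over age, with a median difference of -0.98. In that contrast 0 were called (limma, 5 at an unadjusted p under 0.05). Between genotypes in old mice 3 of 6 were called lower, where 1.48% of all genes were called in either direction. With age in deficient mice 5 of 6 were called lower, where 2.38% of all genes were called. The median of that list lay between -2.41 and -0.12 in old deficient brains against 0.00063 and 0.77 in old wild-type brains, and between 0.0019 and 1.87 in young deficient brains against 0.30 and 0.84 in young wild-type brains. Of 10 choroid plexus markers 0 were higher averaged over age, with a median difference of -0.46 (-0.72 in young mice), and 0 were called (limma; 1 at an unadjusted p under 0.05).

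Among the cells of the brain itself, 5 of 6 neuron markers were higher in deficient brains averaged over age, with a median difference of 0.10, as were 2 of 5 astrocyte markers (-0.07), 0 of 5 microglia markers (-0.10) and 1 of 5 oligodendrocyte markers (-0.10). None of the neuron, astrocyte or microglia markers was called in that contrast (limma; 1, 0 and 1 at an unadjusted p under 0.05). In old mice the median of the microglia list lay between -0.17 and -0.08 in deficient brains against 0.09 and 0.19 in wild-type brains. That of the astrocyte list lay between -0.25 and -0.04 against -0.02 and 0.05. None of the markers of either list was called between genotypes at that age (limma). At an unadjusted p under 0.05 there were 2 microglia markers and 1 astrocyte marker. The list medians also separated between genotypes for blood markers in old mice and keratinised epithelium markers in young mice, as given above. For olfactory markers in young mice they lay between -0.15 and 0.29 in deficient against 0.34 and 0.57 in wild-type brains. How often lists of other genes separate in this way was not computed. The oligodendrocyte marker that was higher was Mobp, a myelin protein, whose brightest probe gave 0.43 ± 0.09 (adjusted p = 0.0181). Its other kept probes gave -0.05 and -0.02, and the mean of all 3 probes 0.12 (adjusted p = 0.474), so the probes of Mobp disagreed. The part of the pituitary, olfactory, blood, choroid plexus, microglia and astrocyte differences in the kallikrein values was not tested.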

How the data were processed

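Whole-brain RNA of 16 male mice was measured on 1-colour arrays. Per the labels' protocols, RNA was isolated with an RNeasy kit and labelled with a QuickAmp kit. Per the file headers, the processed intensity of a spot is that of Feature Extraction 10.7.3.1 (Agilent) after background subtraction. The deposited values of the whole series are log2; their medians (6.606 to 6.622) and ranks (rho with the raw median intensity of at least 0.99997) were taken to mean quantile-normalized log2 signal without background subtraction, an inference, and they served as an alternative. Limma is named, with no version, in the submitters' processing notes.

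Flagged spots (98 to 182 per array) were left out, 0 were saturated, and spots of a probe were averaged. Levels are log2 of the processed signal over its 75th percentile on that array. A probe stayed in if the 4 arrays of any 1 group all had it well above background (33071 probes, 29444 of them on all 16 arrays), and each gene took its brightest kept probe (23030 genes). Group means were fitted over all arrays with limma 3.58.1 (R 4.3.3, version 1.17.8 of the data.table package; 12 residual and 2.84 prior degrees of freedom), with eBayes and Benjamini-Hochberg adjustment at 0.05. The p-values reflect the spread between arrays. On simulated data for the young genotype contrast over 23012 genes, 77% of 100 changes of 1 (log2) and 97% of 100 changes of 2 were recovered, and 7 unchanged genes were called.

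The members, gene lists and the rule for named genes were chosen with earlier results of these data known. Named were all members, Slc5a8, up to 4 called genes per list, the 5 genes most correlated with Klk1b22 and with Klk1b3, and the 6 genes of smallest p called near the cluster; other kallikreins named for comparison were chosen after their values were seen. A result that this rule takes in is not reported here. A gene that does not inhibit proteases was removed from the inhibitor list after its values were seen. Alternatives were normexp (offset 50), quantile normalization, the deposited values, other filters and probe rules, fits of 2 groups, the replicate number as a block, and each array left out.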

Additional observations from a re-analysis of the deposited data

Results flagged for a closer look

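Of 28 member groups of 4 arrays, 3 held an array whose gap to the rest of its group passed Dixon's limit, where chance gives about 1 in 20. Klk1b22 was at -4.36 on old wild-type array 3, well above background, while the other 3 old wild-type arrays were between -6.76 and -6.62 and not well above background. Klk10 was at -3.72 on old wild-type array 2, against -4.27 to -4.22 on the others. Klk7 was at -5.49 on young deficient array 1, the array that stood apart on the first principal component, and was not well above background there.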

How the results depend on the processing

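Klk1b22 and Klk1b3 were chosen for their genotype differences, so the counts of members called between genotypes are given as a description and say nothing of stability; a stricter filter removed both genes. In young mice 2 members were called, but 0 with normexp, 0 without the filter and 1 when the fit held the 2 groups compared. In old mice 1 was called, but 0 with normexp, quantile normalization, the deposited table, no filter, every kept probe, the 2 groups compared or the replicate block. With 1 array left out, members called ranged from 0 to 2 in young mice, 0 to 2 in old mice, and 0 to 1 for age averaged over genotype.

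Over all genes, normexp gave 360, 55 and 243 calls for age in deficient mice, in wild-type mice and averaged, against 547, 97 and 369. No filter gave 146, 225, 456, 222, 213 and 22 calls for young, old and averaged genotype, age in deficient mice, averaged age and interaction, against 352, 341, 732, 547, 369 and 43. Every kept probe gave 78 interaction calls. Fits of the 2 groups compared gave 74 (young genotype), 118 (age, deficient) and 64 (age, wild type). Over 24 pairs of same-numbered arrays r ran from -0.444 to 0.274, with a median of 0.037 and 8 over 0.1. Over 72 differently numbered pairs it ran from -0.502 to 0.653, with a median of 0.0020 and 15 over 0.1. These ranges overlapped, and the numbers were not taken as pairs. With the replicate block the counts were 192 (young genotype), 281 (age, deficient) and 25 (interaction). With 1 array left out, calls ranged from 109 to 410 for young genotype (lowest without young wild-type array 1), 180 to 518 for old genotype (lowest without old deficient array 2), 152 to 643 for age in deficient mice, 60 to 128 for age in wild-type mice, 192 to 448 for averaged age and 21 to 62 for the interaction.

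Signs that turned were of differences smaller than their SE, none of them called. The averaged genotype difference of Klk8 (-0.0018) was 0.013 with normexp and 0.017 in the deposited table, the wild-type age difference of Klk1b22 (-0.06) was 0.11 and 0.058 there, and the old genotype difference of Klk10 (0.06) was -0.027 in the deposited table. With 1 array left out, the Klk8 genotype difference ranged from -0.24 to 0.14 in old, -0.089 to 0.19 in young and -0.086 to 0.10 averaged, and its interaction from -0.30 to 0.071. The Klk10 values ranged from -0.014 to 0.20 (old genotype), -0.036 to 0.30 (age, wild type) and -0.14 to 0.025 (averaged age). Klk1b22 ranged from -1.38 to 0.43 (age, deficient), -0.64 to 0.16 (age, wild type), -0.72 to 0.18 (averaged age) and -1.32 to 0.49 (interaction), and Klk1b3 from -0.85 to 0.28, -0.10 to 0.36, -0.33 to 0.23 and -1.03 to 0.10. Why the counts of called genes moved between settings was not tested. The slide could not be used as a block because each slide held 1 genotype. Probes near background (Klk1, Klk7, Klk11, and Klk1b22 in wild type) limit what can be said of those genes.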
